A study of Homo sapiens with 6 samples.

Results

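Nuclear pore proteins and nuclear transport receptors were compared between SH-SY5Y cells treated with 15EN and vehicle controls (VC). The genes were taken by symbol: NUP, IPO, XPO or TNPO followed by a number and nothing else, and any symbol starting KPNA or KPNB. This gave 40 of the 17687 genes measured, 19 pore proteins and 21 transport receptors, each read by 1 probe set. NUP62, NUP98, IPO7 and IPO11 were not analysed here. SH-SY5Y is an established human neuroblastoma line, and retinoic acid makes its cells more like neurons. All cells were differentiated with atRA (all-trans retinoic acid), and the protocol text shared by all samples gives 96 hours and 15 µM of a bioactive compound. The labels do not expand 15EN, and eurycomanone, a plant quassinoid, is named in the title of the series. Each group has 3 arrays, with 1 array per group at passages 33, 34 and 35 in the titles (every description gives passage 33). Beyond the passages, no label states that a group's samples were grown as separate cultures, and p-values then cover the spread among these arrays alone, which could be technical.

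The nuclear pore complex is the channel through the nuclear envelope. Stacked inner and outer rings form its scaffold, a membrane ring anchors it, proteins with phenylalanine-glycine (FG) repeats fill the central channel, and filaments and a basket extend to the cytoplasmic and nuclear sides. Importins carry cargo in and exportins carry it out. Importin α proteins (KPNA) are adaptors that link classical nuclear localization signals to importin β1 (KPNB1), and the GTPase Ran gives transport its direction. Neurons rely on this system to bring signals from neurites to the nucleus.

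One array stood apart from its group. 15EN replicate 3 correlated with the other 15EN arrays at 0.979 and 0.980 over all probe sets, whereas those correlated at 0.991 with each other and the VC arrays at 0.990 to 0.992. Results are therefore given with and without it. The 4 hybridization controls were dimmer in 15EN. Scaling arrays to equal hybridization controls adds 0.87 to every log2 difference and moves the median gene from 0.01 to 0.88, so every direction below is relative to the median gene, as in the deposited values. Of the sympathetic neuroblast markers measured, 5 of 8 fell in 15EN at an adjusted p of 0.05 (62.5%, against 9.09% of all genes) and 0 rose. The log2 of their summed signal was 15.5 to 15.8 in 15EN and 16.4 to 16.9 in VC. Those that fell were the lineage transcription factors PHOX2A (-0.88 on the log2 scale) and ISL1 (-1.19), and STMN2, CHGA and ELAVL4. HAND2 and GATA3, also lineage transcription factors, had means of 12.5 and 12.8 in 15EN and differences of 0.09 and 0.07. A gene is called dim in a group where its mean lies below the negative control probe sets' 90th percentile, and CHGA was dim in both groups. Of 9 fibroblast markers, 2 fell (22.2%, against 9.09% of all genes), with POSTN and FAP dim in both. The summed signal of the 9 was 14.5 to 14.9 in 15EN and 14.4 to 14.8 in VC. All 6 Schwann cell and glial markers measured were dim in both groups (summed signal 7.73 to 7.94 in 15EN, 7.74 to 7.97 in VC). Their part in the results below was not tested, and in bulk samples fewer cells of a type and less RNA per cell cannot be told apart.

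Of the 40 genes, 7 rose in 15EN and 0 fell at an adjusted p of 0.05, or 17.5% called. Over all genes 21.4% were called, 12.3% higher and 9.09% lower, so the share called among these genes was near that of all genes. Of the 17687 genes, 8295 were dim in both groups, against 3 of the 40, and shares of all genes here and below include them. Without the dimmest tercile, 2301 of 11791 genes were higher and 1682 lower, against 7 members higher and 1 lower. That filter dropped KPNA7 from the members. There the share called was larger over all genes than among the remaining members, for higher calls and for lower calls alike. At limma's unadjusted p of 0.05 and without that filter, 13 of the 40 were higher (32.5%, against 18.2% of all genes) and 3 lower (7.5%, against 14%). The 7 became 13 higher and 1 lower without 15EN replicate 3, and 4 higher and 0 lower without VC replicate 1 or VC replicate 3. Higher calls over all genes moved as well. They went from 2179 to 3227 without 15EN replicate 3, 1424 without VC replicate 1 and 1378 without VC replicate 3. The 2 pore proteins that rose were NUP88 and NUP37, 10.5% of the 19. The 5 receptors that rose were IPO4, KPNA4, XPO4, TNPO3 and KPNB1, 23.8% of the 21. They were 2 without VC replicate 1 or 3 and 3 without 15EN replicate 2 or VC replicate 2. Higher calls over all genes were 1472 without 15EN replicate 2 and 1301 without VC replicate 2. The positive differences outnumbered the negative ones, 28 to 12 (70.0% positive, against 51.2% of all genes), with 15 of 19 positive among pore proteins and 13 of 21 among receptors. The median log2 difference was 0.42 for pore proteins, 0.19 for receptors and 0.01 for all genes, and the extremes were -0.60 (NUP85) and 1.23 (NUP88). The pore median was 0.26 without 15EN replicate 1 or 2. The receptor median moved to 0.091 when 15EN replicate 2 was left out, to 0.10 when VC replicate 1 was, to 0.10 after quantile normalization and to 0.060 after removal of a brightness trend.

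**Figure D1:**
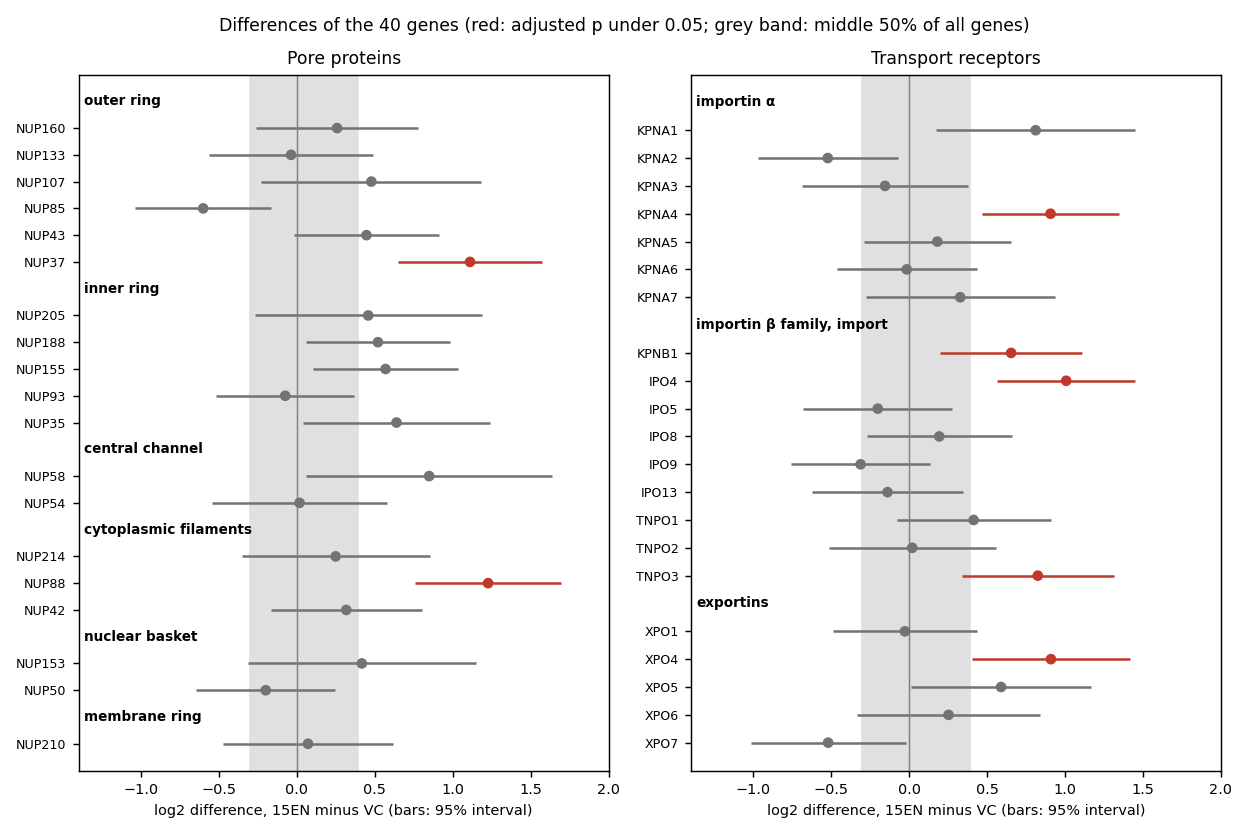
Log2 differences (15EN minus VC, horizontal axis) of the 19 pore proteins (left) and 21 transport receptors (right), ordered by place or role, with 95% intervals of the fit on 3 arrays a group. The 7 genes in red passed an adjusted p of 0.05, all of them higher in 15EN, and most of the others have intervals that include 0.

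NUP88, a nucleoporin of the cytoplasmic filaments that helps to hold the export machinery at the pore, changed most. On the 15EN arrays it read 11.03, 10.72 and 10.80 (log2 signal, replicates in the order 1, 2, 3 here and below), and on the VC arrays 9.43, 9.77 and 9.67. Every 15EN array thus lay above every VC array. The difference was 1.23 ± 0.21 (SE, adjusted p = 0.00275), or 2.34-fold. NUP37, a subunit of the Y-shaped outer ring, read 10.05 on all 3 15EN arrays and 9.20, 8.79 and 8.83 in VC. The groups did not overlap, and the spread came from the VC arrays (SD 0.226, against 0.00085 in 15EN). The difference was 1.11 ± 0.21 (adjusted p = 0.00435), or 2.16-fold. Both rises passed with any 1 array left out, and NUP88 lost its call only when both arrays of replicate number 1 were left out (adjusted p = 0.0652), NUP37 only when both of number 2 were (0.0866).

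The other 5 outer ring genes taken by the name rule did not pass. NUP85, another scaffold subunit of that ring, moved the opposite way to NUP37 and missed the threshold. Its log2 signal was 8.86, 8.91 and 8.92 in 15EN and 9.41, 9.45 and 9.63 in VC, with no overlap. The difference was -0.60 ± 0.20 (adjusted p = 0.0539). It passed without 15EN replicate 3 (adjusted p = 0.0397), after quantile normalization (0.0334) and without the dimmest tercile (0.0399), but read 0.27 after scaling to the hybridization controls. NUP43 differed by 0.45 ± 0.21 (adjusted p = 0.173) with no overlap of the groups, and NUP133 by -0.04, with a 95% interval from -0.57 to 0.49. NUP107 read 10.70, 9.99 and 9.39 in 15EN against 9.28 to 9.80 in VC, and NUP160 read 12.57, 12.22 and 11.86 against 11.84 to 12.03. In both, 15EN replicates 1 and 2 were above all VC arrays and replicate 3 was not.

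The inner ring had no called gene among its 5 and positive differences in 4. NUP155, a scaffold protein that touches the membrane, read 11.81, 11.46 and 11.78 in 15EN and 11.01, 11.08 and 11.26 in VC (difference 0.57 ± 0.21, adjusted p = 0.0831). NUP188 read 12.26, 12.03 and 12.00 in 15EN against 11.76, 11.52 and 11.45 in VC (0.52 ± 0.21, adjusted p = 0.107). The groups of both genes did not overlap, though neither passed. NUP35, a membrane-binding subunit, reached 11.03 and 10.76 in 15EN replicates 1 and 2 but 10.08 in replicate 3, against 9.84 to 10.20 in VC. NUP93 stayed within -0.52 to 0.37 by its 95% interval. NUP205 was dim in both groups, as was the membrane ring protein NUP210.

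The sharpest split between arrays was in the FG nucleoporins NUP58 of the central channel and NUP153 of the nuclear basket. NUP58 read 13.14 and 13.41 in 15EN replicates 1 and 2, 11.87 in replicate 3, and 11.90, 11.95 and 12.03 in VC. NUP153 read 14.53 and 14.76 in 15EN replicates 1 and 2, 13.38 in replicate 3, and 13.87, 13.77 and 13.79 in VC. Replicate 3 thus lay below every VC array in both genes while the other 15EN arrays lay well above. Neither passed over all 6 arrays (adjusted p = 0.124 for NUP58 and 0.447 for NUP153). Without 15EN replicate 3 the differences were 1.32 ± 0.20 (adjusted p = 0.000752) and 0.84 ± 0.20 (adjusted p = 0.00881). In NUP214, on the cytoplasmic face, and NUP54, a channel partner of NUP58, replicate 3 also lay below every VC array, and in NUP42, on the cytoplasmic face, it lay inside the VC range. In all 3 genes the other 15EN arrays were above VC, with differences of 0.51 (NUP214), 0.26 (NUP54) and 0.45 (NUP42) without replicate 3, of which none passed (adjusted p = 0.115, 0.387 and 0.128). NUP50, a basket protein that helps to release imported cargo, differed by -0.20 ± 0.20 (adjusted p = 0.563).

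In all, 8 of 19 pore proteins (42.1%) had 15EN replicates 1 and 2 above every VC array and replicate 3 not, against 8.21% of all genes. The mirror pattern, with replicates 1 and 2 below every VC array and replicate 3 not, was seen in 0 pore proteins and 9.83% of all genes. With replicate 1 or replicate 2 as the array apart, 0 pore proteins had the pattern, against 3.55% and 3.27% of all genes. The mirror pattern was seen for replicate 1 in 2 pore proteins, NUP93 and NUP50 (10.5%, against 3.51%), and for replicate 2 in 0 (against 3.36%). Among receptors 4 of 21 (19%) had the pattern of replicate 3, namely KPNA5, KPNA7, XPO1 and XPO5. This pattern was singled out after the values were seen. Without 15EN replicate 3, NUP107, NUP35, NUP58, NUP153, KPNA1 and XPO5 joined the 7 genes that rose, which gave 13 higher genes (6 pore proteins and 7 receptors) and 1 lower, NUP85. The 13 are 32.5% of the 40, where 18.2% of all genes were higher and 12.7% lower in that fit.

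**Figure D2:**
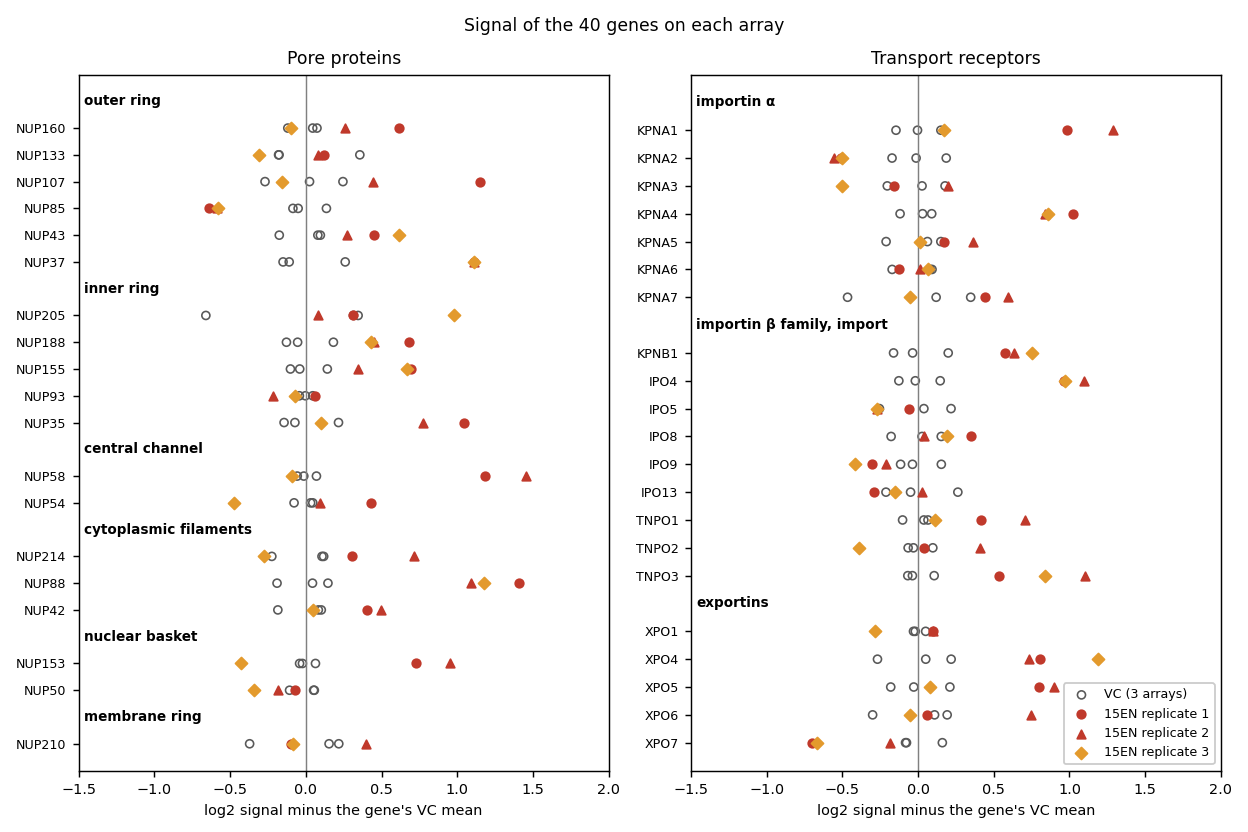
Log2 signal of each gene minus its VC mean (horizontal axis), with 1 point per array, for pore proteins (left) and transport receptors (right). In NUP58 and NUP153 the diamond of 15EN replicate 3 lies at or below the open VC circles while the red points lie above, whereas in NUP88, NUP37, IPO4 and KPNA4 all 3 15EN points lie above VC.

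Among the importin α adaptors, KPNA4 (importin α3) rose and KPNA2 (importin α1), the adaptor of proliferating cells, had the lowest difference. KPNA4 read 13.65, 13.46 and 13.48 in 15EN and 12.50, 12.71 and 12.65 in VC, a gap wider than the spread in either group. Its difference was 0.91 ± 0.20 (adjusted p = 0.00933), or 1.87-fold. KPNA4 passed with any 1 array left out, but not without both arrays of number 1 (adjusted p = 0.131) or 2 (0.0898). KPNA2 read 14.43, 14.38 and 14.43 in 15EN and 14.92, 14.76 and 15.12 in VC. The groups did not overlap, but the difference of -0.52 ± 0.20 missed the threshold (adjusted p = 0.0985). It read 0.35 after scaling to the hybridization controls and passed with a trended robust prior (adjusted p = 0.0435). KPNA1 (importin α5) read 11.95, 12.25 and 11.14 in 15EN against 10.82, 10.96 and 11.12 in VC, just without overlap (0.81 ± 0.29, adjusted p = 0.073), and 1.13 ± 0.21 without 15EN replicate 3 (adjusted p = 0.00228). KPNA3, the adaptor most like KPNA4, differed by -0.16 ± 0.24 (adjusted p = 0.728), and KPNA6 by -0.02, with a 95% interval from -0.47 to 0.43. KPNA5 differed by 0.18 ± 0.21 (adjusted p = 0.633), and KPNA7 was dim in both groups.

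Of the 9 importin β family import receptors measured, 3 rose (33.3%, against 12.3% of all genes). IPO4, an importer of histones and ribosomal proteins, read 9.43, 9.56 and 9.43 in 15EN and 8.61, 8.34 and 8.45 in VC. The difference was 1.01 ± 0.20 (adjusted p = 0.00566), or 2.01-fold, and it passed with any 1 array left out. IPO4 lost its call when both arrays of number 1 (adjusted p = 0.0563) or 2 (0.11) were left out. TNPO3, which imports serine/arginine-rich splicing factors, read 13.24, 13.81 and 13.55 in 15EN and 12.67, 12.81 and 12.64 in VC (0.83 ± 0.22, adjusted p = 0.023). Its call was lost without 15EN replicate 2 (adjusted p = 0.0848) or without VC replicate 1 (0.0774), 2 (0.0652) or 3 (0.0875). KPNB1, importin β1 itself, read 14.66, 14.72 and 14.84 in 15EN and 14.05, 13.92 and 14.28 in VC, without overlap. Its difference of 0.65 ± 0.21 lay close to the threshold (adjusted p = 0.0459). KPNB1 kept its call in 8 of 18 alternatives. The call was lost with the replicate number as a block (adjusted p = 0.0515), after quantile normalization (0.0638) and after removal of a brightness trend (0.08). Leaving out 15EN replicate 1 (0.0875), 15EN replicate 2 (0.1) or any VC replicate (0.129, 0.174 and 0.0712 for 1, 2 and 3) also lost it. So did leaving out both arrays of number 1 (0.212) or 2 (0.302).

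The other import receptors did not pass. TNPO1, a transportin that imports RNA-binding proteins, read 15.10, 15.39 and 14.80 in 15EN and 14.72, 14.75 and 14.58 in VC (0.41 ± 0.22, adjusted p = 0.238). Its close relative TNPO2 differed by 0.02 ± 0.24 (adjusted p = 0.971). IPO9, a carrier of histones, read 15.03, 15.12 and 14.92 in 15EN and 15.49, 15.30 and 15.22 in VC. All 15EN arrays were below VC, yet the difference of -0.31 ± 0.20 had an adjusted p of 0.336, and it read 0.56 after scaling to the hybridization controls. IPO5, IPO8 and IPO13 had 95% intervals from -0.68 to 0.28, -0.27 to 0.66 and -0.62 to 0.35.

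Of the 5 exportins, XPO4 rose (20% of them, against 12.3% of all genes). XPO4, which exports the translation factor eIF5A, read 12.07, 12.00 and 12.45 in 15EN and 10.99, 11.48 and 11.31 in VC. The groups did not overlap, and the difference was 0.91 ± 0.23 (adjusted p = 0.0177), or 1.88-fold. The XPO4 call was lost when VC replicate 1 (adjusted p = 0.079) or 3 (0.0576) was left out. XPO1, the general exporter of proteins with leucine-rich export signals (CRM1), read 12.89, 12.89 and 12.51 in 15EN and 12.76, 12.77 and 12.84 in VC. Its difference was -0.03, with a 95% interval from -0.49 to 0.43. XPO5, the exporter of pre-miRNA hairpins, read 10.75, 10.85 and 10.03 in 15EN and 9.78, 9.93 and 10.17 in VC (0.59 ± 0.26, adjusted p = 0.147), and 0.85 ± 0.21 without 15EN replicate 3 (adjusted p = 0.0108). XPO7 read 12.72, 13.23 and 12.75 in 15EN and 13.34, 13.58 and 13.34 in VC without overlap (-0.52 ± 0.22, adjusted p = 0.136), with a value of 0.35 after scaling to the hybridization controls. XPO6, the exporter of actin with profilin, differed by 0.25 ± 0.27 (adjusted p = 0.582).

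Pore proteins and receptors were set against each other by their medians on each array, which is a description without a test. Relative to the VC mean of each gene, the pore median of the 15EN arrays was 0.45, 0.40 and -0.08 for replicates 1, 2 and 3, and that of the VC arrays 0.03, -0.04 and 0.04. The receptor median was 0.17, 0.41 and 0.01 in 15EN, and -0.04, -0.02 and 0.05 in VC. Both sets were therefore raised in 15EN replicates 1 and 2 and close to VC in replicate 3, while the median of all genes was -0.03, -0.04 and 0.07 on the 15EN arrays. Pore median minus receptor median was 0.28, -0.01 and -0.10 in 15EN and 0.07, -0.02 and -0.01 in VC. The 15EN values enclosed the VC values, so the arrays did not separate pore proteins from receptors, although the medians of the fitted differences lay 0.22 apart. That distance was 0.075 without 15EN replicate 1, 0.11 without VC replicate 2 and 0.15 without VC replicate 3. Groups that did not overlap were found for 12 genes higher in 15EN (30.0%, against 19.7% of all genes) and 4 lower (10.0%, against 16.6%). Of the 12, 5 were pore proteins and 7 receptors.

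**Figure D3:**
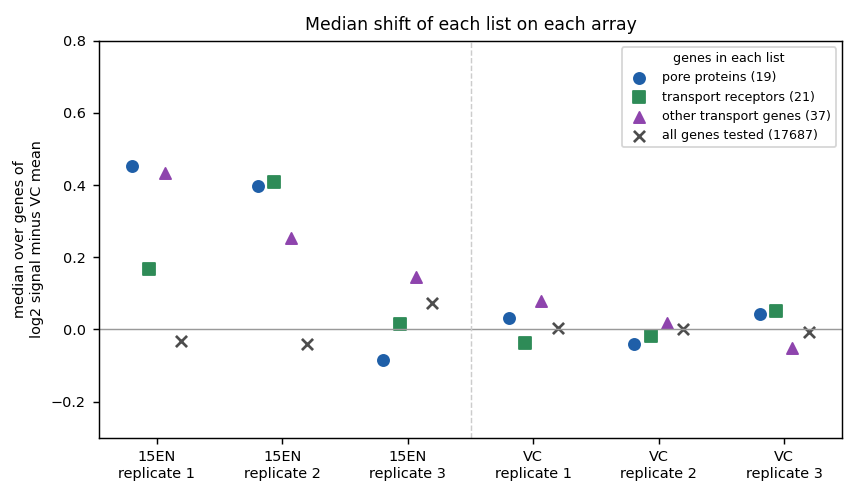
Median over the genes of a list of log2 signal minus each gene's VC mean (vertical axis) on each of the 6 arrays (horizontal axis), for pore proteins, transport receptors, other nuclear transport genes and all genes tested. Pore proteins reach 0.45 and 0.40 on 15EN replicates 1 and 2 and -0.08 on replicate 3.

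Genes of the same pathway with other names were taken from 4 lists written from textbook knowledge, of which 37 of 39 genes were measured. Of these, 8 rose and 1 fell (24.3% called, against 21.4% of all genes), with a median log2 difference of 0.19 (0.11 without 15EN replicate 1, 0.29 without 15EN replicate 2). The 8 were 12 without 15EN replicate 3 and 5 without VC replicate 2, where higher calls over all genes went from 2179 to 3227 and 1301. Among 10 further pore proteins 3 rose (30%, against 12.3% of all genes) and 0 fell. RAE1, the mRNA export factor that binds the pore, read 12.76, 12.58 and 12.11 in 15EN and 10.49, 10.49 and 10.57 in VC. This gap of 1.97 ± 0.23 (adjusted p = 0.000401), or 3.91-fold, exceeded that of each of the 40 genes above. SEH1L, an outer ring subunit, rose by 1.37 ± 0.23 (adjusted p = 0.00235), with 13.37, 13.37 and 12.97 in 15EN against 12.07, 11.93 and 11.59 in VC. AAAS, the pore protein ALADIN, rose by 0.87 ± 0.22 (adjusted p = 0.0173), a call lost when 15EN replicate 1 (adjusted p = 0.0668), VC replicate 2 (0.0863) or VC replicate 3 (0.0684) was left out.

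Carriers outside the name rule gave 1 rise and 1 fall among 9 (22.2% called, against 21.4% of all genes). PHAX, the adaptor for export of small nuclear RNA, rose by 1.03 ± 0.22 (adjusted p = 0.00798). NUTF2 (NTF2), which returns Ran to the nucleus, read 13.72, 13.65 and 14.15 in 15EN and 15.01, 14.94 and 14.38 in VC. It fell by 0.94 ± 0.25 (adjusted p = 0.0224), a difference of -0.07 after scaling to the hybridization controls. NUTF2 did not pass when replicate 1 or replicate 2 of either group was left out (adjusted p from 0.0742 to 0.0993). In the Ran cycle, 0 of 4 genes passed by limma (1 at an unadjusted p under 0.05), and RAN differed by 0.12 ± 0.22 (adjusted p = 0.781). Of 14 mRNA export genes 4 rose (28.6%, against 12.3% of all genes) and 0 fell. These were DDX19B, the helicase that releases mRNA at the pore (1.18 ± 0.25, adjusted p = 0.00832), THOC1 (1.03 ± 0.26, adjusted p = 0.0165) and THOC6 (0.95 ± 0.22, adjusted p = 0.0118) of the THO complex, and PCID2 of the TREX-2 complex (0.94 ± 0.21, adjusted p = 0.0101). DDX19B and DDX19A are near-identical copies, so their values are uncertain. THOC1 lost its call when any of 4 arrays was left out, namely 15EN replicate 1 (adjusted p = 0.0641), 15EN replicate 2 (0.0637), VC replicate 2 (0.0744) and VC replicate 3 (0.0744). THOC6 lost its call without VC replicate 2 (0.055) and without VC replicate 3 (0.0602).

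**Figure D4:**
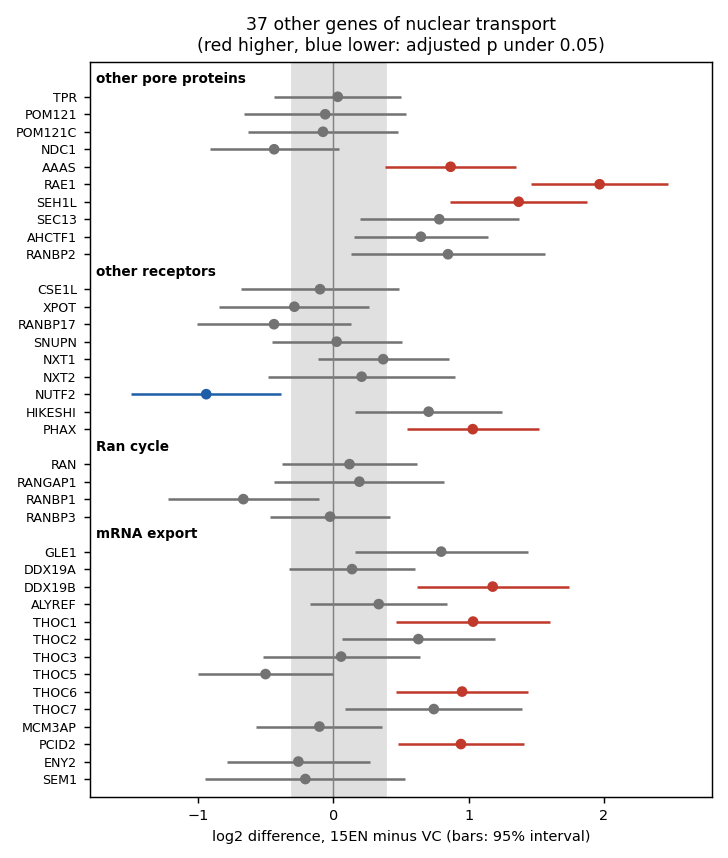
Log2 differences (15EN minus VC, horizontal axis) with 95% intervals for 37 further genes of nuclear transport, grouped by role. RAE1 at 1.97 stands farthest to the right, and NUTF2 at -0.94 is the only gene called lower.

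Promoters were examined as a description, and shared control of these genes was not tested. RefSeq promoter windows (GRCh38.p14, 250 bases before to 50 after the start site) matched 34 of the 40 genes. The CCAAT box bound by NF-Y was found on either strand in 18 of the 34 (52.9%), against 35.7% of all 27305 windows in the table and 36.4% of the 14250 windows of genes on the array. It was present in 9 of 18 pore proteins and 9 of 16 receptors. The CHR element of cell cycle promoters (TTTGAA or TTCGAA) was found in 5 windows (14.7%, against 16.6% of all windows and 13.4% of array genes), and the E-box CACGTG in 5 (14.7%, against 7.43% and 8.69%). TGACGTCA, the CREB site, was in 3 windows (8.82%, against 1.98% and 2.62%), those of NUP133, NUP214 and NUP42. The NRF1 motif GCATGCGC was in 2 (5.88%, against 3.27% and 4.25%), and an E2F motif (TTTCCCGC, TTTGGCGC, TTTGCCGC or TTTCGCGC) in 1 (2.94%, against 3.33% and 4.44%). The 37 other nuclear transport genes had 32 windows, with the CCAAT box in 9 (28.1%), below the share of array genes. Their windows held the CHR element in 4 (12.5%), the E-box in 1 (3.12%), and the CREB, NRF1 and E2F motifs in 2 each (6.25%). These are matches of letters, read on both strands, and no motif overlaps another in the stretches printed here.

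Of the 7 called members 5 have a window, and KPNA4 and KPNB1 have none. The 250 bases before the start site are shown for the 4 called members whose bases there hold a searched motif. They run 5′ to 3′ on the gene's strand, with the motifs in capitals. In TNPO3 these bases hold no searched motif. Of the called genes outside the name rule, not shown here, DDX19B, THOC1 and THOC6 hold a motif there. AAAS, RAE1, SEH1L, NUTF2, PHAX and PCID2 do not. NUP88 has 3 CCAAT boxes, all read as ATTGG. NUP37 has 1 CHR element (as TTCAAA) and 1 CCAAT box, IPO4 an E-box, and XPO4 1 CCAAT box.
NUP88 (chr17:5419663-5419912, minus strand): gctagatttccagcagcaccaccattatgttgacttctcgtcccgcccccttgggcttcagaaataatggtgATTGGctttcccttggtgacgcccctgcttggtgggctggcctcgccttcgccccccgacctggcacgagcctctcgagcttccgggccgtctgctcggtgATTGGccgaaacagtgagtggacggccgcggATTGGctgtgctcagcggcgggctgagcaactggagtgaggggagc
NUP37 (chr12:102120115-102120364, minus strand): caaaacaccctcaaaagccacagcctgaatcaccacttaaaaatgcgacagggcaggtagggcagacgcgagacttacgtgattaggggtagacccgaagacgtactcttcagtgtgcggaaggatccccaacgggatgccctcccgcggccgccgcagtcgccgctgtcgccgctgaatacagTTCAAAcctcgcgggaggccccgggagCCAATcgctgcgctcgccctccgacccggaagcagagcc
IPO4 (chr14:24188817-24189066, minus strand): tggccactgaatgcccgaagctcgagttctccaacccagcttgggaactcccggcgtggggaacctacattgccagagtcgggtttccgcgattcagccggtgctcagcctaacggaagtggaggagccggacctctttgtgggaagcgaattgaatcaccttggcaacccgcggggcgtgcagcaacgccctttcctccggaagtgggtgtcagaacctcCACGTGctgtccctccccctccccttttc
XPO4 (chr13:20902775-20903024, minus strand): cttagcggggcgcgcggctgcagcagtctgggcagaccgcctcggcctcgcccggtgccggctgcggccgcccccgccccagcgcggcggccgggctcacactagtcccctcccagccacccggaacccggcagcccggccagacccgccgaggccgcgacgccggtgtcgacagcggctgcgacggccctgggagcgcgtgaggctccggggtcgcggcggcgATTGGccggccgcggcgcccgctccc

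Of the 34 genes, 4 start head to head with another coding gene within 1000 bases, in the same RefSeq table. NUP37 starts 69 bases from PARPBP and NUP88 520 bases from RPAIN. These neighbours did not pass, with differences of 0.11 ± 0.20 for PARPBP (adjusted p = 0.785) and -0.28 ± 0.20 for RPAIN (adjusted p = 0.384). NUP188 starts 96 bases from DOLK, which differed by -0.05 ± 0.23 (adjusted p = 0.916). XPO5 starts 147 bases from POLH, the gene of the translesion DNA polymerase η. POLH read 12.23, 12.67 and 11.75 in 15EN and 10.43, 11.14 and 11.03 in VC, and rose by 1.35 ± 0.29 (adjusted p = 0.00809). Both genes of that pair were lowest in 15EN replicate 3 among the 15EN arrays. So were NUP188 (12.00, against 12.03 in replicate 2) and DOLK (7.74, against 7.79), by less than their standard errors. The neighbours PARPBP (10.15, against 10.31 in replicate 2) and RPAIN (9.51, against 9.52) were also lowest there, while NUP37 and NUP88 were not. The margins of PARPBP and RPAIN were below their standard errors too, and shared behaviour of the pairs was not tested.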

How the data were processed

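Whole-transcript arrays of 1 colour (biotin) were run on 3 15EN and 3 VC samples, with 100 ng of total RNA per labelling, per the labels' protocols. The deposited values are log2 signals per probe set, made by the authors with the Transcriptome Analysis Console, per the submitters' processing notes. No version, summarization, normalization or genome build was named (not given in the sources used here), and the log2 scale was judged from the values (2.20 to 18.8). Of 21448 gene probe sets, 17709 carry 1 symbol in the platform annotation, 0 several and 3739 none. The probe set of highest mean was kept per gene, which left 17687 genes, with no filter on low values.

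Differences came from limma (version 3.58.1, under R 4.3.3), with lmFit and eBayes and group as the sole term, two-sided, adjusted over all 17687 genes by Benjamini-Hochberg. Errors beside differences are standard errors of that fit. The fit was tested on simulated data in which arrays were drawn independently. Those data held no pairing and no array set apart, so the test does not cover these features. Same-numbered arrays share a passage in the titles, and their deviations from the group means correlated at 0.229, 0.162 and 0.133, which was read as pairing, and a fit with that block was an alternative. The members and lists were chosen with earlier results of these data known. Genes to be named were those called, members with an adjusted p from 0.05 to 0.1, the member of highest mean in each class, up to 4 called genes of each pathway list, and KPNB1, XPO1, RAN and NUP98 where measured. The remaining members and the head-to-head neighbours were named after their values were seen. Alternatives were other scalings (quantile, median, hybridization controls, removal of a brightness trend), a filter on the dimmest tercile, the mean of probe sets, array weights, a trended robust prior, prefix matches, and arrays left out. The number of arrays limits the precision.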

Additional observations from a re-analysis of the deposited data

How the results depend on the processing

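The directions of the 7 called genes held under all 18 alternatives run, and 99 of their 126 comparisons kept the call. RAE1 passed in all 18. Scaling to the hybridization controls gave 37 higher and 0 lower members (18 pore proteins, 19 receptors) and 30 higher and 0 lower among other transport genes, with medians of 1.29 for pore proteins, 1.06 for receptors and 1.06 for the others, against 0.88 for all genes, because 0.87 is added to every difference. There NUP133 read 0.83, NUP85 0.27, NUP93 0.79, NUP50 0.67, KPNA2 0.35, KPNA3 0.71, KPNA6 0.85, IPO5 0.67, IPO9 0.56, IPO13 0.73, XPO1 0.84 and XPO7 0.35. That scaling also moved the calls over all genes from 2179 higher and 1608 lower to 12150 and 437. Quantile normalization, removal of a brightness trend and leaving out the dimmest tercile each gave 1 lower member, a pore protein (NUP85), and array weights 14 higher and 1 lower, with 7 higher and 1 lower pore protein and 13 higher other genes, where calls over all genes rose to 3158 higher and 2244 lower. The trended robust prior gave 1 lower member, a receptor (KPNA2). Removal of the brightness trend left the other genes with 2 lower and a median of 0.067. NUP54 read -0.074 and TNPO2 -0.065 after quantile normalization, -0.11 and -0.0788 after removal of the trend (RAN -0.012), and NUP133 0.066 and XPO1 0.058 with array weights. The cause of these shifts was not tested. With the replicate number as a block, 6 members and 11 other genes were higher (4 receptors, KPNB1 being lost), and no other member's call changed. Adding the 1 prefix match, NUP62CL, gave a pore median of 0.37.

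Over the settings that leave out arrays, the higher count ran from 1 to 13 for members and 1 to 6 for pore proteins. It ran from 0 to 7 for receptors and 1 to 13 for other genes, against 526 to 3227 over all 17687 genes. The lower count ran from 0 to 1 except for receptors, which kept 0. Leaving out both arrays of a number leaves 2 a group, and fewer genes passed there without number 1 or 2. In each, 1 member was higher, against 640 and 526 of all genes. The member count fell to 4 without VC replicate 1 or 3, where 1424 and 1378 of all genes were higher. Pore median minus receptor median ran from 0.075 to 0.26. Signs of small differences turned in the ranges of NUP133 (-0.20 to 0.28), NUP54 (-0.19 to 0.28), NUP210 (-0.11 to 0.23), KPNA3 (-0.43 to 0.11), KPNA6 (-0.10 to 0.038), KPNA7 (-0.040 to 0.58), IPO13 (-0.25 to 0.000185), TNPO2 (-0.21 to 0.22), XPO1 (-0.11 to 0.12) and RAN (-0.016 to 0.29). Dim probe sets (NUP205, NUP210 and KPNA7) limit what can be read of those genes.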
